A study of Rattus norvegicus with 18 samples.

Results

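Control hippocampus from 2 rat models of temporal lobe epilepsy was compared here: the sham libraries of the kainic acid (KA) model against those of the kindling (KI) model, over all genes. They were chosen by their titles and make up 11 of the 18 libraries of the series, 7 labelled KA sham and 4 labelled KI sham. All came from adult male Sprague-Dawley rats of about 170 to 280 g, and RNA was read from the left hippocampus. In the KA model rats had electrodes implanted and then received rising systemic doses of kainic acid until status epilepticus. In the KI model rats carried hippocampal electrodes and were stimulated electrically on each day until fully kindled. The other 7 libraries, 3 labelled KA 3 Class V and 4 labelled KI 3 Class V, are from rats with seizures, taken 24 hours after the last one. The sources used here do not say what surgery, injection or handling a sham of either model received, nor when its tissue was taken. The labels name no batch, so model, surgery, handling and any batch cannot be told apart in a difference between the 2 sham groups. Whether each library came from its own animal is stated for some libraries at most, so the p-values measure the spread between these samples.

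The hippocampus is a cortical structure of pyramidal cells, dentate granule cells and interneurons, and is a main site of seizure onset in temporal lobe epilepsy. An implanted electrode is a small brain wound, and microglia and astrocytes around such wounds are known to turn on immune and repair genes. Sham animals are the baseline against which seizure effects are read, so differences between shams of separate models bear on any comparison of those models. In bulk tissue a lower level can come from fewer cells of a type or from less RNA per cell, and these cannot be told apart.

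Depth was similar, with 32150130 to 42619628 counted reads in the KA shams and 30925368 to 38850420 in the KI shams. Levels are given in CPM, the usual unit for read counts scaled to a common library size, here with a normalization factor. The tissue label fitted its markers: Neurod6, a pyramidal cell transcription factor, was at 120 to 196 CPM in the 11 shams, and Calb1, the calcium buffer calbindin, at 49.6 to 75.1 CPM. Eif2s3y, a gene of the Y chromosome, was at 42.7 CPM or more in every sham. Several sham libraries stood apart. KI sham 1 was low in many genes, KI sham 3 was high in immune genes, and KI sham 4 was high in genes of tissue next to the hippocampus. Ribosomal RNA took 16.4% of the counts in KI sham 2 and 9.67% in KA sham 4, and KA sham 3 was high in choroid plexus genes. The library labelled KA sham 1 had a mean correlation of log2 CPM across genes of 0.993 with the 4 KI 3 Class V libraries, against 0.978 with the other KA shams.

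The shams of the 2 models differed in the level of 1 gene, Polr3k, a small subunit of RNA polymerase III, the enzyme that transcribes tRNA and 5S rRNA genes. Of 13338 genes tested, edgeR's quasi-likelihood test called 1 at an adjusted p below 0.05 (0.00750%), and it was higher in KI sham. No gene was called higher in KA sham (0%). At an unadjusted p below 0.05 there were 1151 genes (8.63%), 540 higher in KA (4.05%) and 611 higher in KI (4.58%). DESeq2 called 11 genes (0.0825%), 4 higher in KA (0.0300%) and 7 higher in KI (0.0525%). limma-voom with weights for library quality called 411 (3.08%), 314 higher in KA (2.35%) and 97 higher in KI (0.727%), so the number of called genes depended on the method. Without both KI sham 3 and KI sham 4, edgeR called 625 genes, 322 higher in KA and 303 higher in KI. That setting left only KI sham 1, which was low in many genes, and KI sham 2 in the KI group. Every KA sham lay above every KI sham for 64 genes (0.480%), and every KI sham above every KA sham for 24 (0.180%).

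Polr3k was at 105, 89.3, 113 and 89.6 CPM in KI shams 1 to 4. In the KA shams it ran from 48.9 to 59.5 CPM with a median of 53.6. The lowest KI sham was thus well above the highest KA sham. The 2 groups of rats with seizures sat at the KA sham level, with 49.5, 71.1 and 49.7 CPM in KA 3 Class V and 51.5 to 53.0 CPM in KI 3 Class V. The 4 KI shams therefore stood above all other 14 libraries. The log2 difference between shams, KA minus KI, was -0.88 ± 0.10 (SE; edgeR adjusted p = 0.00160), or 1.84-fold higher in KI. Between the 3 Class V groups the log2 difference was 0.13 ± 0.13 (edgeR adjusted p = 0.657). The 2 log2 differences themselves differed by -1.01 ± 0.17 (edgeR adjusted p = 0.0106). Without the library labelled KA sham 1 the sham difference was -0.89, and over all 18 ways of leaving out 1 library it ran from -0.95 to -0.82 and was called each time. The 4 tested genes that come before it in RefSeq gene order, Rgs19, Oprl1, Myt1 and Pcmtd2, were not called, and for each of them the sham groups overlapped.

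**Figure D1:**
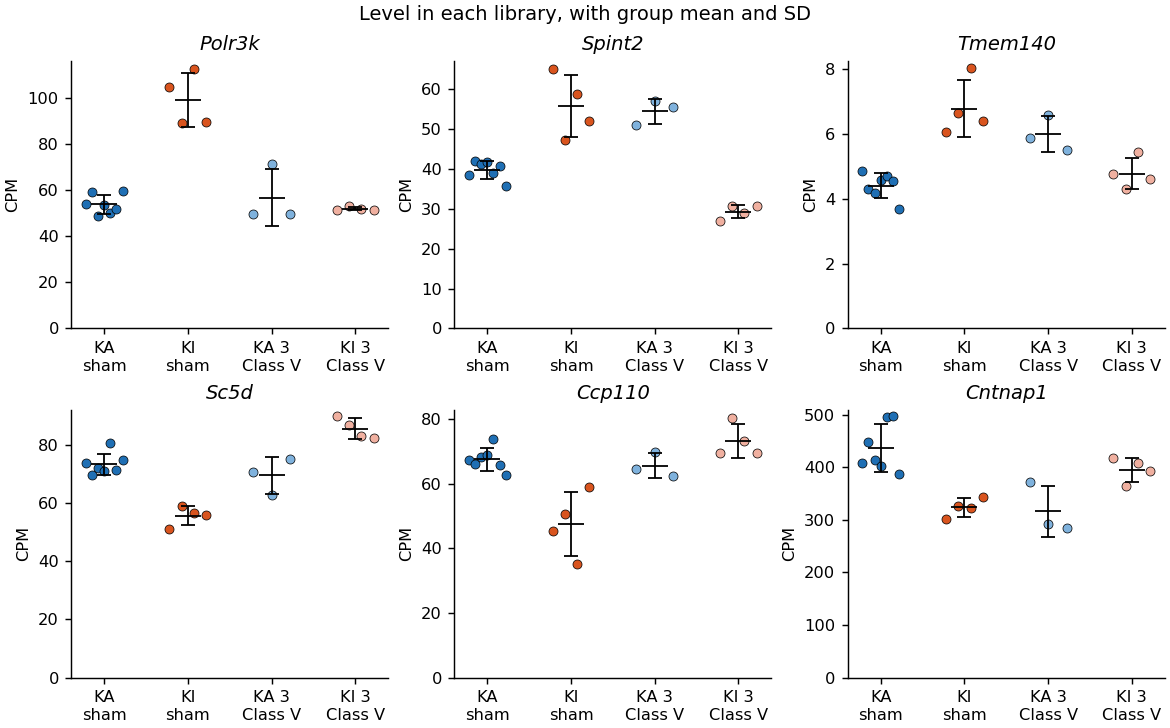
Level in CPM (linear axis from 0) of 6 genes in each of the 18 libraries, grouped as KA sham, KI sham, KA 3 Class V and KI 3 Class V; each point is a library, the bar is the group mean and the whiskers are the SD. Polr3k is at 89.3 to 113 CPM in the KI shams and at 48.9 to 59.5 CPM in the KA shams, and the other 5 genes separate the shams without passing the adjusted test.

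Genes were named after a filter on symbols and at a mean log2 CPM of at least 1. Under these limits, the next 5 genes by p that were higher in KI sham were not called. Spint2, an inhibitor of serine proteases at the cell surface, was at 65.2, 47.4, 58.7 and 52.1 CPM in KI shams 1 to 4 and at 35.7 to 42.0 CPM in the KA shams, with a median of 40.7. Its sham groups did not overlap, but the log2 difference of -0.49 ± 0.09 missed the threshold (edgeR adjusted p = 0.105). In the rats with seizures the order was opposite, with 51.0, 57.0 and 55.5 CPM in KA 3 Class V and 27.0 to 30.6 CPM in KI 3 Class V, a log2 difference of 0.89 ± 0.11 (edgeR adjusted p = 7.53e-04). The sham and seizure differences of Spint2 differed by -1.38 ± 0.14 (edgeR adjusted p = 1.59e-04). Tmem140 was at 6.05, 6.66, 8.04 and 6.39 CPM in the KI shams and at 3.70 to 4.86 CPM in the KA shams, again without overlap (log2 difference -0.62 ± 0.12, edgeR adjusted p = 0.133). Orai2, a store-operated calcium channel, was at 197, 141, 135 and 159 CPM in the KI shams and at 68.7 to 149 CPM in the KA shams, where the 149 CPM belonged to the library labelled KA sham 1. Its log2 difference was -0.71 ± 0.16 in the shams (edgeR adjusted p = 0.503) and -0.70 ± 0.20 in the 3 Class V groups, and edgeR called it without KA sham 1. Marcks, an actin-binding target of protein kinase C, and Erp29, a chaperone of the endoplasmic reticulum, had log2 differences of -0.39 ± 0.10 each (edgeR adjusted p = 0.564 for both).

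Under the same limits, the 6 genes with the smallest p among those higher in KA sham included 2 enzymes of sterol synthesis. Sc5d, a sterol desaturase of the last steps to cholesterol, was at 69.6 to 80.5 CPM in the KA shams, with a median of 72.1, and at 51.1, 58.9, 56.5 and 55.9 CPM in KI shams 1 to 4. Hmgcs1, an early enzyme of the same pathway, was at 301 to 409 CPM in the KA shams and at 274, 301, 254 and 269 CPM in the KI shams. Sc5d separated the shams and Hmgcs1 barely overlapped, yet neither was called (log2 differences 0.40 ± 0.08 and 0.36 ± 0.09, edgeR adjusted p = 0.138 and 0.564). Ccp110, a centriole protein that restrains cilium growth, was at 62.6 to 74.0 CPM in the KA shams and at 45.4, 50.8, 35 and 59.0 CPM in the KI shams. Cntnap1, an axonal protein of the junctions beside nodes of Ranvier, was at 387 to 497 CPM in the KA shams and at 301, 326, 323 and 344 CPM in the KI shams. Both separated the groups without a call (log2 differences 0.51 ± 0.11 and 0.43 ± 0.10, edgeR adjusted p = 0.431 and 0.564). Pex5l, an auxiliary subunit of HCN channels, had a log2 difference of 0.57 ± 0.15. Rph3a, a synaptic vesicle protein that binds Rab3, had one of 0.75 ± 0.19 (edgeR adjusted p = 0.564 for both). For Rph3a, KI sham 1 stood at 65.7 CPM against 159 to 178 CPM in the other KI shams, and without it the log2 difference was 0.51.

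DESeq2 called Polr3k, Spint2, Tmem140, Orai2 and Marcks higher in KI, and Sc5d, Ccp110, Cntnap1 and Hmgcs1 higher in KA. Its calls also included Shox2, a homeobox gene expressed at the edge of detection and named here after its values were seen. Shox2 was at 0.138, 0.383, 0.295 and 1.17 CPM in the KI shams and at 0 to 0.0829 CPM in the KA shams. It was highest in KI sham 4, and the groups did not overlap.

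Immune gene lists had lower medians in KA than in KI sham, with no member called. Of 20 interferon response genes none had a higher level in KA sham, and their median log2 difference was -0.83, against -0.01 over all genes tested. Of 18 genes of activated microglia and macrophages 17 were higher in KI (median -0.90), as were all 20 of complement and antigen presentation (median -0.57) and 15 of 18 cytokines and chemokines (median -0.64). At an unadjusted p below 0.05 and higher in KI stood 9 of the 20 complement and antigen presentation genes, 6 of the 18 of activated microglia and 5 of the 20 interferon genes, beside 4.58% of all genes. Psmb8, a subunit of the immunoproteasome, was at 18.1, 18.1, 43.9 and 18.1 CPM in the KI shams and at 10.4 to 28.6 CPM in the KA shams (log2 difference -0.74 ± 0.28, edgeR adjusted p = 0.564). Tap1, a peptide transporter for antigen presentation, was at 6.99, 10.5, 30.3 and 15.7 CPM in the KI shams and at 5.09 to 15.8 CPM in the KA shams. KI sham 3 was the highest of all shams for both genes. Ifitm1, an interferon-induced membrane protein, was instead highest in KI sham 4, with 2.18, 3.22, 11.4 and 17.6 CPM in KI shams 1 to 4 and 1.41 to 6.77 CPM in the KA shams.

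These medians depended on KI sham 3, and the activated microglia median also on KI sham 4. Without KI sham 4 they were -0.93 for interferon, -0.64 for cytokines and chemokines, -0.48 for activated microglia and -0.62 for complement and antigen presentation. Without KI sham 3 the median log2 difference was 0.19 for the interferon genes, 0.12 for cytokines and chemokines, -0.27 for activated microglia and -0.30 for complement and antigen presentation. Without both libraries it was 0.40 for interferon, 0.52 for cytokines, 0.44 for activated microglia and -0.06 for complement and antigen presentation. This left only KI sham 1 and KI sham 2, and KI sham 1 had the lowest activated microglia score of the shams (-1.34). KI sham 3 had the highest score of the shams in each of these lists, so a smaller difference without it was favoured in advance. That the sign was not kept for the first 3 lists is therefore a description only. Genes named for activated microglia show the same dependence. Spp1, the secreted protein osteopontin, was at 3.46, 46.3, 373 and 249 CPM in KI shams 1 to 4 and at 5.63 to 116 CPM in the KA shams, so KI sham 1 was the lowest and KI sham 3 the highest of all 11. Cd14, a receptor for bacterial products, was at 1.59, 2.87, 12.8 and 4.94 CPM in the KI shams and at 1.2 to 4.07 CPM in the KA shams. Ch25h, which makes an oxysterol in macrophages, was at 2.56, 4.37, 15.1 and 5.69 CPM and at 1.94 to 5.87 CPM, respectively.

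Of 18 homeostatic microglia genes 17 had a higher level in KI sham, 5 of them at an unadjusted p below 0.05, beside 4.58% of all genes. Their median log2 difference was -0.44, and -0.07 without both KI sham 3 and KI sham 4. C1qa, a chain of complement C1q made by microglia, was at 231, 209, 443 and 303 CPM in KI shams 1 to 4 and at 90.4 to 313 CPM in the KA shams (log2 difference -0.85 ± 0.30, edgeR adjusted p = 0.564). All 20 reactive astrocyte genes had a higher level in KI sham (median -0.34, and 0.13 without both libraries), yet Gfap, the intermediate filament that marks reactive astrocytes, had a difference near 0. It was at 2641, 4068, 5033 and 3178 CPM in the KI shams and at 2264 to 5535 CPM in the KA shams (log2 difference -0.06 ± 0.23, edgeR adjusted p = 0.935).

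Neuronal and sterol lists had the opposite sign, again with no member called. Of 29 voltage-gated channel genes 25 were higher in KA sham (median log2 difference 0.35), as were 14 of 17 genes of synaptic vesicle release (0.24), 12 of 14 GABA receptor subunits (0.26), 17 of 22 glutamate receptors (0.17) and 13 of 15 interneuron genes (0.23). Each of these medians stayed above 0 under the alternatives run, but their size depended on single libraries and settings. The channel median was 0.59 without KI sham 4 and 0.14 with a ribosomal protein score as covariate, and the vesicle release median was 0.06 with that covariate. The GABA receptor median was 0.11 without KI sham 1 and 0.41 without KI sham 4, the glutamate receptor median 0.33 without KI sham 4, and the interneuron median 0.13 without KA sham 6. Cacna1i, a T-type calcium channel, was at 31.2, 93.8, 93.8 and 106 CPM in KI shams 1 to 4 and at 103 to 164 CPM in the KA shams (log2 difference 0.74 ± 0.24, edgeR adjusted p = 0.564). Kcnq3, a subunit of the M-type potassium channel, was at 23.8, 38.1, 55.1 and 95.2 CPM and at 55.3 to 125 CPM. In both genes KI sham 1 was the lowest of the 11 shams.

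Of 20 genes of cholesterol synthesis and uptake 19 were higher in KA sham, 8 of them at an unadjusted p below 0.05 beside 4.05% of all genes. Their median log2 difference was 0.21 and ranged from 0.11 to 0.28 over the alternatives. Stard4, a carrier that moves cholesterol between membranes, was at 14 to 21.2 CPM in the KA shams and at 7.19, 13.1, 12.7 and 13.7 CPM in KI shams 1 to 4, without overlap (log2 difference 0.60 ± 0.17, edgeR adjusted p = 0.564). Hmgcs1 and Sc5d belong to the same list. Of 16 myelin and oligodendrocyte genes 12 were higher in KA sham (median 0.16), but the median was 0.02 without KI sham 3 and 0.30 without KI sham 4. Mobp, a myelin protein, was at 303, 682, 607 and 653 CPM in the KI shams and at 573 to 1409 CPM in the KA shams, where the lowest was the library labelled KA sham 1 (log2 difference 0.86 ± 0.24, edgeR adjusted p = 0.564). Of 16 astrocyte genes 12 were higher in KA sham (median 0.15), among them Slc1a2, the main glutamate transporter of astrocytes, at 68.5, 258, 378 and 336 CPM in the KI shams and 371 to 594 CPM in the KA shams. The astrocyte median was 0.05 without KI sham 4 and 0.03 by limma-voom.

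Stress, hormone and housekeeping lists had no member called either. Of 13 glucocorticoid response genes 10 were higher in KI sham (median -0.15), 4 of them at an unadjusted p below 0.05, beside 4.58% of all genes. Yet Fkbp5, a widely used reporter of glucocorticoid action, was at 45.5 to 64.3 CPM in the KA shams and at 48.4 to 65.9 CPM in the KI shams. Cdkn1a, an inhibitor of the cell cycle, was at 16.2, 17, 26.3 and 18.9 CPM in KI shams 1 to 4 and at 9.61 to 17.5 CPM in the KA shams (log2 difference -0.63 ± 0.19, edgeR adjusted p = 0.564). The median log2 difference was -0.17 for heat shock and unfolded protein response genes (17 of 19 higher in KI), 0.18 for circadian clock genes (10 of 14 higher in KA) and 0.05 for immediate early genes (10 of 19 higher in KA). Pyramidal cell and dentate granule cell genes had medians of -0.06 and -0.03. Of 73 ribosomal protein genes 71 were higher in KI sham (median -0.16), and of 76 genes of oxidative phosphorylation 69 (median -0.13). Without KI sham 1 these medians were 0.03 and 0.09, that of heat shock genes was -0.03 and that of clock genes 0.10. The glucocorticoid median was -0.27 without KI sham 4.

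**Figure D2:**
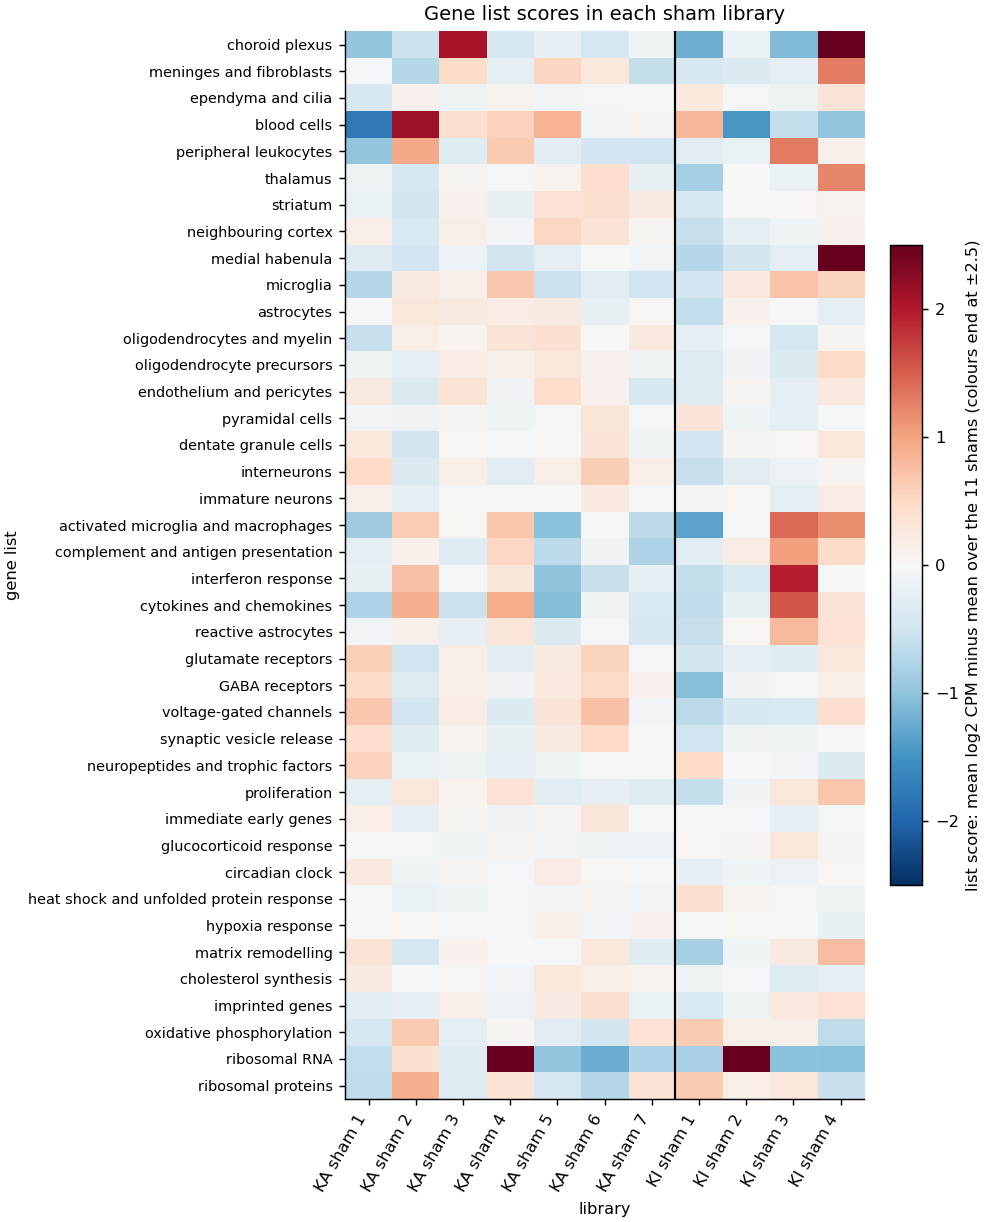
Score of each gene list (rows) in each of the 11 sham libraries (columns; the line separates KA from KI shams): each gene's deviation in log2 CPM from its sham mean, averaged over the list, with red above and blue below that mean and colours that end at 2.5. KI sham 3 is red for interferon (1.96) and cytokines (1.54), KI sham 4 for choroid plexus (3.07) and medial habenula (3.12), and KA sham 3 for choroid plexus (2.08).

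The spread between libraries was wider among KI than among KA shams over most genes. The median SD of log2 CPM was 0.349 in KI sham and 0.274 in KA sham, and 8523 genes (63.9%) had the larger SD in KI sham. The SD was more than 2 times as large in KI sham for 3253 genes (24.4%) and in KA sham for 905 (6.79%). Pairs of KI shams correlated less, with a mean r across genes of 0.962 over 6 pairs, against 0.980 over 21 pairs of KA shams and 0.971 over 28 pairs of a KA and a KI sham. The median SD of KI sham depended on which libraries were kept. Without KI sham 1 it was 0.257, and leaving out KI sham 4 gave 0.270. Leaving out KI sham 2 gave 0.398, and leaving out KI sham 3 gave 0.369. A median SD tends to be lower when fewer libraries enter it, and no correction was made for this. These values therefore cannot be set directly against the 0.274 of the KA shams. The common biological coefficient of variation estimated by edgeR was 0.241 in KA sham and 0.346 in KI sham.

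A test of spread per gene, limma on absolute deviations from the group mean, called 2 genes (0.0150%), both wider in KI sham. Slc39a12, a zinc importer, was at 1.45, 1.88, 14.3 and 12.6 CPM in KI shams 1 to 4 and at 1.30 to 3.00 CPM in the KA shams, with SDs of log2 CPM of 1.73 and 0.38 (limma adjusted p = 0.00445). Cdk6, a cell cycle kinase with low expression that is named after its values were seen, was at 0.242, 0.351, 1.5 and 1.73 CPM in the KI shams and at 0.751 to 1.13 CPM in the KA shams (limma adjusted p = 0.00445). In both genes KI shams 3 and 4 were high and KI shams 1 and 2 low. At an unadjusted p below 0.05 there were 1895 genes (14.2%), 1781 of them wider in KI sham. The number called depended on single libraries: it was 0 when KI sham 1 was left out, 1402 when KI sham 2 was, 1006 when KI sham 3 was and 1251 when KI sham 4 was. Among the next genes by p, not called, KI shams 3 and 4 also lay apart from KI shams 1 and 2. A split of 2 KI shams against 2 gives near-equal deviations from the group mean. A ranking by this test favours such genes, so the repeated split is a description only. Sdc1, a cell surface proteoglycan, was at 1.21, 1.82, 13.3 and 6.37 CPM in the KI shams and at 2.36 to 3.71 CPM in the KA shams (limma adjusted p = 0.121). Slc7a10, an amino acid transporter, was at 41.2, 39.6, 24.8 and 25.7 CPM and at 33.6 to 42.1 CPM (limma adjusted p = 0.208).

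**Figure D3:**
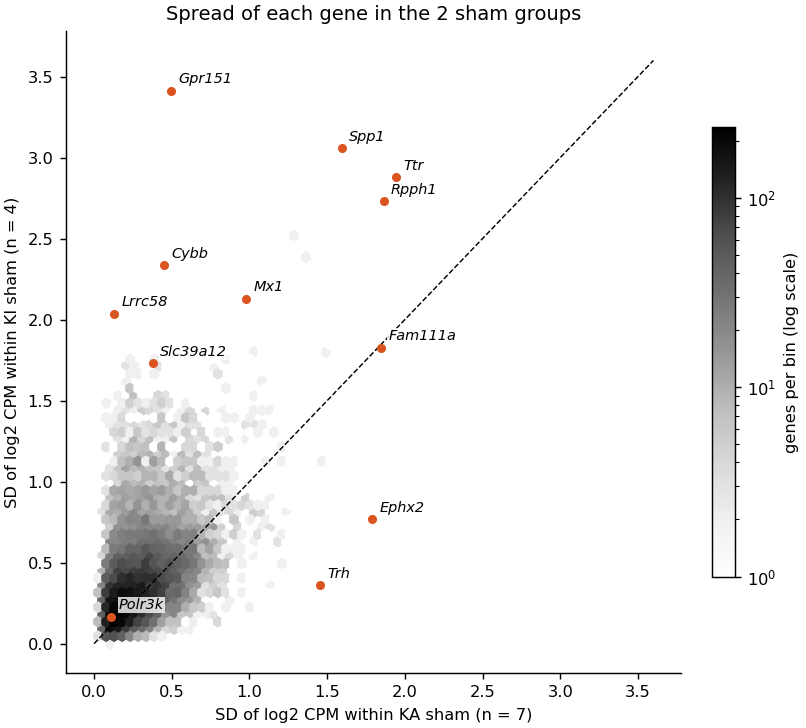
SD of log2 CPM within the 4 KI shams (vertical) against that within the 7 KA shams (horizontal) for all genes tested, drawn as bins shaded by the number of genes on a log scale, with 12 genes marked; the dashed line marks equal SDs. More genes lie above the line than below it (63.9%), with Gpr151, Spp1 and Lrrc58 far above it and Trh and Ephx2 below it.

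By list, all 20 interferon genes and all 14 choroid plexus genes had the larger SD in KI sham, beside 63.9% of all genes. So did 15 of 18 activated microglia genes and 65 of 76 oxidative phosphorylation genes. Single libraries stood apart in the first 2 lists. The interferon score was 1.96 in KI sham 3 and -0.59 to -0.02 in the other KI shams. The choroid plexus score was 3.07 in KI sham 4 and -1.21 to -0.16 in the other KI shams. Ribosomal protein genes went the other way, with the larger SD in KI sham for 13 of 73. In KA sham the widest genes included Trh, Fam111a, Ephx2 and Rpph1. Ephx2, an epoxide hydrolase, was at 1.13, 2.48, 1.11, 15.8, 25.3, 10.6 and 4.20 CPM in KA shams 1 to 7 and at 14.7, 29.8, 13.5 and 8.12 CPM in KI shams 1 to 4. Fam111a, a protease gene, was at 14.6 and 13 CPM in KA shams 1 and 5 and at 0.640 to 1.29 CPM in the other 5, and in the KI shams at 5.12, 0.988, 1.35 and 16.2 CPM. Both genes varied widely within each model, and their sham groups overlapped.

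**Figure D4:**
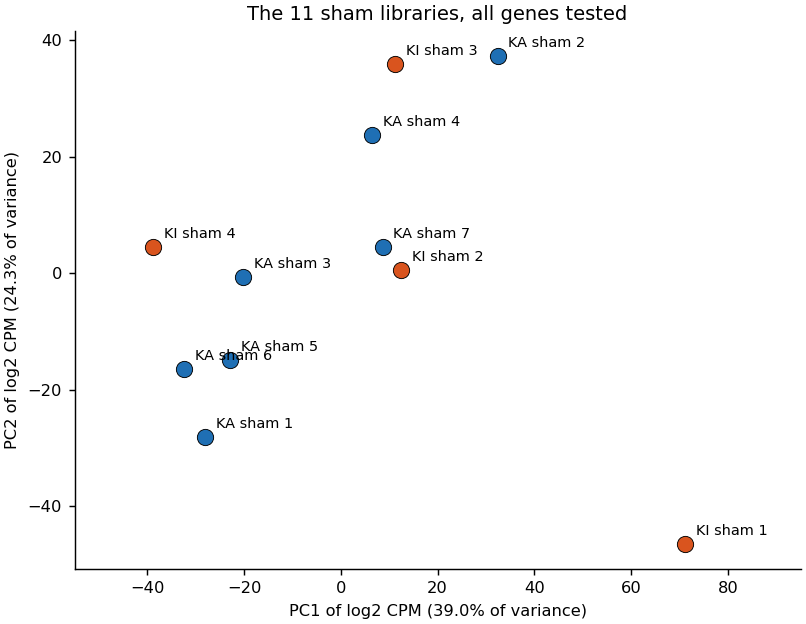
The first 2 principal components of log2 CPM over the 11 sham libraries (axes in component units, 39.0% and 24.3% of the variance), with KA shams in blue and KI shams in orange. The models do not separate, and KI sham 1 lies apart at the lower right.

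Genes that set single libraries apart were then listed; they are named after their values were seen and no test was made of them. A gene counted for a library if it was at least 2-fold beyond every one of the other 10 shams in log2 CPM. KI sham 1 had 958 genes below and 25 above all others, KI sham 3 had 100 above and 3 below, and KI sham 4 had 55 above and 7 below. Each of the other 8 shams had at most 30 such genes in both directions together.

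KI sham 4 carried genes of the medial habenula, a cholinergic nucleus dorsal to the thalamus and next to the hippocampus. Gpr151, a receptor that marks habenular neurons, was at 18.3 CPM there and at 0.0692 to 0.367 CPM in the other shams. Chrna3, a nicotinic receptor subunit typical of the habenula, was at 30.5 CPM against 0.351 to 1.53 CPM, and Chat, the enzyme that makes acetylcholine, at 6.63 CPM against 0.0667 to 0.402 CPM. A list of 9 tested habenula genes, written after these values were seen, scored 3.12 in KI sham 4 and -0.71 to 0.0004 in the other shams. KI sham 4 was also highest for choroid plexus, the secretory tissue of the ventricles. Ttr, the thyroid hormone carrier transthyretin, reached 887 CPM in KI sham 4; KA sham 3 had 572 CPM, while the other 9 lay between 11.2 and 63.8 CPM. The choroid plexus score reached 3.07 in KI sham 4 and 2.08 in KA sham 3, and elsewhere lay between -1.21 and -0.10. Tcf7l2, a transcription factor of the thalamus, was at 29.4 CPM in KI sham 4 and at 7.81 to 12.6 CPM in the others. Col3a1, a collagen of fibroblasts and meninges, was at 104 CPM there against 9.93 to 41.1 CPM. Sst, the peptide of somatostatin interneurons, was lowest in the same library, at 89.0 CPM against 168 to 284 CPM. KI sham 4 was singled out by these genes, so a change of their medians on leaving it out is a description only. The median log2 difference then went from -1.16 to 1.07 for 14 choroid plexus genes, from -2.63 to 0.13 for the habenula genes and from -0.20 to 0.08 for 9 thalamus genes.

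KI sham 3 stood out by immune genes. Mx1, an antiviral protein induced by interferon, reached 205 CPM there and 50.7 CPM in KA sham 2, while the others lay between 6.19 and 39.9 CPM. Cd8a, the marker of cytotoxic T cells, was at 38.2 CPM in KI sham 3, against 0.166 to 5.29 CPM in the other shams. Cxcl11, a chemokine for T cells, was at 4.33 CPM against 0.0829 to 0.667 CPM, and Klrk1, a receptor of natural killer and T cells, at 3.17 CPM against 0.0278 to 0.490 CPM. Prf1, the pore-forming protein of killer cells, was at 1.65 CPM against 0 to 0.380 CPM. Lymphocyte and interferon genes were thus high in the same library. Lcn2, a protein of reactive astrocytes and granulocytes, was at 16.5 CPM in KI sham 3, against 0.211 to 6.13 CPM. Siglec1, a macrophage receptor, was high in both KI sham 3 and KI sham 4, at 16 and 14.4 CPM, against 0.389 to 2.91 CPM in the others. KA shams 2 and 4 came next for immune lists, with cytokine scores of 0.89 and 0.92 against 1.54 in KI sham 3 and -1.07 to 0.32 in the other 8.

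KI sham 1 was marked by low values. Lrrc58, a leucine-rich repeat gene, was at 1.87 CPM against 25.5 to 46.2 CPM in the other shams. Gabrb2, a subunit of the GABA-A receptor, was at 1.14 CPM against 10.5 to 33.0 CPM, and Kcnj10, the astrocyte potassium channel Kir4.1, at 5.95 CPM against 64.4 to 103 CPM. Xiap, an inhibitor of caspases, was at 1.52 CPM against 12.8 to 23.5 CPM. These genes belong to neurons, astrocytes and all cells alike. Among genes above the other shams, Zbtb20, a transcription factor of hippocampal neurons, was at 113 CPM against 20.3 to 40.6 CPM, and Esf1, a nucleolar protein, at 68.5 CPM against 19 to 27.4 CPM. KI sham 1 had the lowest depth of the shams, with 30925368 counts, and its part in these values was not tested. Without it, edgeR called 2 genes between the sham groups, Polr3k and Shox2.

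KI sham 2 and KA sham 4 stood out by ribosomal RNA. The 7 ribosomal RNA genes counted, of which 5 were tested, took 16.4% of the counts in KI sham 2. Their share was 9.67% in KA sham 4 and 0.584% to 2.0% elsewhere. Rn5-8s, a ribosomal RNA, was at 17366 and 7296 CPM in these libraries and at 473 to 2055 CPM elsewhere. Rpph1, the RNA of ribonuclease P and a product of RNA polymerase III, was high in the same libraries, at 190 and 111 CPM, against 2.51 to 27.8 CPM. Polr3k did not follow this, with 89.3 CPM in the first library and 53.6 CPM in the second. With the ribosomal RNA genes left out of the library sizes edgeR called the same 1 gene. KI sham 2 was also high in Ca3, a muscle-type carbonic anhydrase, at 34 CPM against 1.10 to 4.99 CPM. KA sham 4 was the highest sham for RT1-CE10, a class I gene of the rat histocompatibility complex, at 48.7 CPM against 7.88 to 27.8 CPM, although reads of near-identical RT1 genes may have been split.

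The library labelled KA sham 1 differed from the other shams in genes that were high in the kindled rats. Trh, the peptide thyrotropin-releasing hormone, was at 23.7 CPM in it, at 0.994 to 4.63 CPM in the other 10 shams and at 16.1 to 38.9 CPM in KI 3 Class V. Mmp9, a protease of the extracellular matrix, was at 41.4 CPM in it, at 3.18 to 9.91 CPM in the other shams and at 28.2 to 45.5 CPM in KI 3 Class V. Npy, neuropeptide Y, was at 337 CPM in it, at 58.7 to 193 CPM in the other shams and at 286 to 327 CPM in KI 3 Class V. Tac3, a tachykinin gene, was at 79.3 CPM in it, at 17.1 to 39.1 CPM in the other shams and at 72.9 to 77.8 CPM in KI 3 Class V. For these 4 genes the library lay within or just above the KI 3 Class V values and above every other sham. Its mean r of 0.993 with KI 3 Class V compares with 0.991 to 0.994 among the KI 3 Class V libraries themselves and with 0.954 to 0.989 for the other 6 KA shams. Without it edgeR called 2 genes between the shams, Polr3k and Orai2, and the median SD of KA sham was 0.265.

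KA sham 2 was highest in red cell genes. Hbb, a beta globin, was at 4024 CPM there against 240 to 1987 CPM in the other shams, and Alas2, the heme synthesis enzyme of red cells, at 73.8 CPM against 4.12 to 28.6 CPM. Alox15, a lipoxygenase found in reticulocytes and eosinophils, followed, at 90.2 CPM against 1.21 to 34.3 CPM. All 6 blood cell genes had a higher level in KA sham (median log2 difference 0.88, 1.60 without KI sham 1 and 0.30 without both KI sham 3 and KI sham 4). Their score ran from -1.79 to 2.13 in the KA shams and from -1.45 to 0.84 in the KI shams. The lowest blood score of all belonged to the library labelled KA sham 1. KA sham 5 was highest in Cckbr, the cholecystokinin B receptor, at 20.7 CPM against 5.05 to 9.87 CPM. KA sham 6 was highest in Dlk1, an imprinted gene of the Notch ligand family, at 3.64 CPM against 0.553 to 1.57 CPM. KA sham 7 had no gene at least 2-fold above all other shams.

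**Figure D5:**
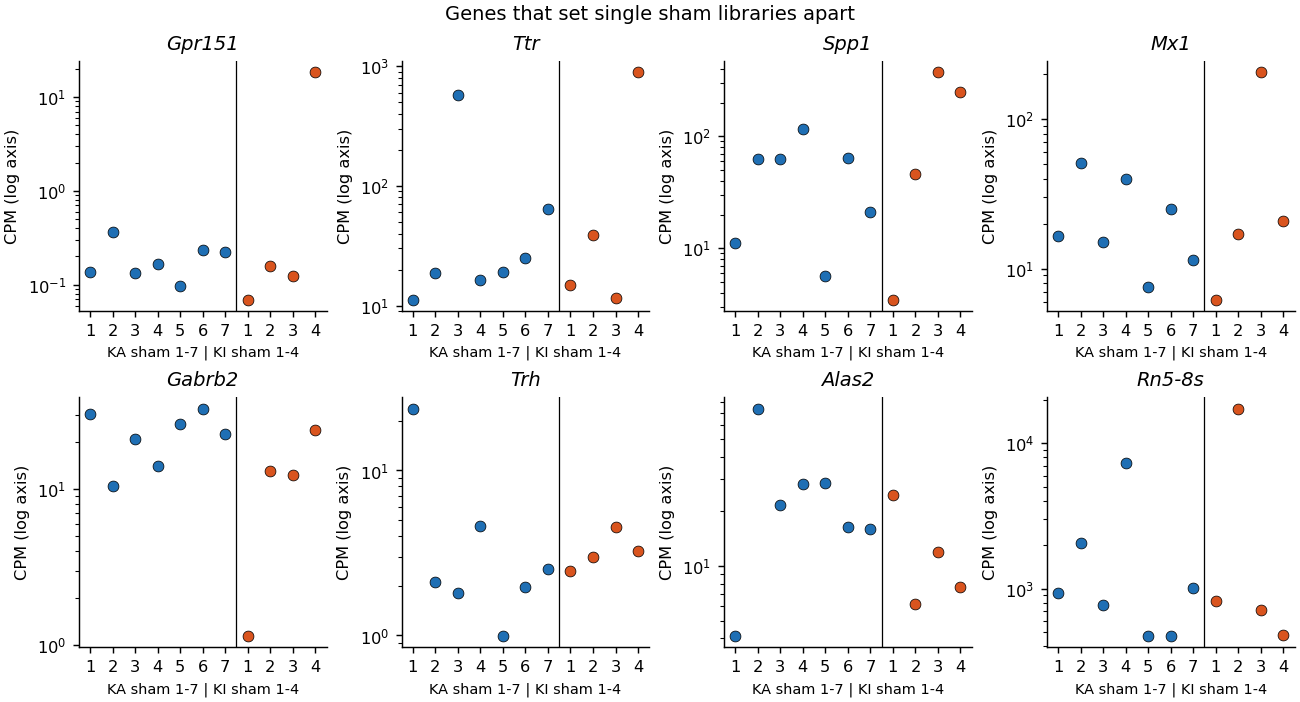
Level in CPM (log axis) of 8 genes in each sham library, KA shams 1 to 7 in blue and KI shams 1 to 4 in orange; each point is 1 library. The libraries to look at are KI sham 4 for Gpr151, KI sham 4 and KA sham 3 for Ttr, KI shams 3 and 4, the highest, for Spp1, KI sham 3 for Mx1, KI sham 1 for Gabrb2, KA sham 1 for Trh, KA sham 2 for Alas2, and KI sham 2 and KA sham 4 for Rn5-8s.

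The difference between models was not the same in shams as in rats with seizures. Between KA 3 Class V and KI 3 Class V edgeR called 376 genes (2.82%), 329 higher in KA (2.47%) and 47 higher in KI (0.352%). A test of whether the sham difference differed from that difference called 507 genes (3.80%); for 87 of them (0.652%) KA minus KI was larger in the shams and for 420 (3.15%) it was smaller. Across all genes the 2 log2 differences, which share no library, had a correlation of -0.38, a description over genes that are not independent. Of the 12 genes named by the rule for the sham comparison, all but Rph3a and Orai2 passed the test of the difference (edgeR adjusted p from 1.59e-04 to 0.0450). These 12 were chosen by sham values that also enter this test, so their passing it is a description only. Sc5d, for example, was at 82.3 to 89.9 CPM in KI 3 Class V and at 62.7 to 75.3 CPM in KA 3 Class V, the reverse order of the shams (difference of the log2 differences 0.70 ± 0.12, edgeR adjusted p = 0.0114). Aspg, a reactive astrocyte gene, was at 2.63, 3.95, 7.45 and 5.71 CPM in KI shams 1 to 4, at 2.28 to 4.70 CPM in the KA shams, at 8.51 to 16.9 CPM in KA 3 Class V and at 3.06 to 3.58 CPM in KI 3 Class V (difference -2.58 ± 0.40, edgeR adjusted p = 0.00627). List medians had opposite signs for some lists: -0.57 in shams and 1.32 in 3 Class V for complement and antigen presentation, -0.34 and 1.23 for reactive astrocytes (0.13 in shams without both KI sham 3 and KI sham 4), and 0.35 and -0.59 for voltage-gated channels. Other lists kept their sign, with 0.15 and 0.26 for astrocytes, 0.16 and 0.26 for myelin and oligodendrocytes, and 0.88 and 0.21 for blood cells. These counts depended on single libraries. Without KA 3 Class V replicate 2 or 3, or KI 3 Class V replicate 1, 2 or 3, the comparison of rats with seizures called 15 to 29 genes, and without KI sham 1 it called 801. The test of the difference called 56 genes without KA 3 Class V replicate 3, 332 without the library labelled KA sham 1, and 897 without KI sham 1.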

How the data were processed

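Left hippocampal RNA was measured in 18 libraries, and the 11 shams are reported. The authors deposited a table of raw counts of reads per gene symbol (17455 symbols, 1846 at 0 in all libraries), and all 18 columns matched a sample by library name. The submitters' processing notes name build rn6 and, as tools, HISAT2, featureCounts, Trimmomatic, FastQC and DESeq2. Tool versions, gene annotation, strand setting and handling of multi-mapped reads were not given in the sources used here, and overlapping and near-identical genes are uncertain. Per the labels' protocols RNA was extracted with a Qiagen kit, built into NEBNext Ultra II libraries and read in single reads of 110 bases. No 2 shams were near-identical (chi-square over its degrees of freedom 22.9 to 650.5), and each library counts once.

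Counts were fitted in R 4.3.3 with edgeR 4.0.16: TMM factors, filterByExpr (which kept 13338 genes), group means over all 18 libraries and 14 residual degrees of freedom, robust quasi-likelihood F test, two-sided, Benjamini-Hochberg adjustment over all genes tested, threshold 0.05. A standard error is the absolute log2 difference divided by the square root of F. CPM use TMM factors, and log2 CPM a prior count of 2. Spread was tested with limma 3.58.1. The fits were tested on simulated counts. Alternatives were DESeq2 1.42.0, limma-voom, other factors and filters, the shams alone, a replicate block, a ribosomal protein score, and left-out libraries.

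The libraries and the 40 gene lists were chosen with earlier results of these data known, and the habenula list was added later. The rule for named genes took called genes that separate the shams, filled up to 6 in each direction by smallest p. These needed a mean log2 CPM of at least 1 and a symbol not starting with LOC, RGD, AABR, Rn or Mir. The rule also took the genes of widest spread in each group under these limits. From each list it took the 3 members of smallest p. Fkbp5, Gfap, Cdk6, Neurod6, Calb1 and the genes of single libraries were named after their values were seen. Neighbours of Polr3k come from RefSeq gene order (assembly GRCr8), for which 15501 symbols matched, 1606 matched a synonym and 348 did not match. Some genes that these rules pick are not reported here.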

Additional observations from a re-analysis of the deposited data

Results flagged for a closer look

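Of 108 groups of sham values examined, 10 had 1 library farther from the rest than Dixon's 95% limit allows, and chance alone gives about 1 in 20 groups. In KA sham these were the choroid plexus score of KA sham 3 (2.08, against -0.97 to -0.10 in the other 6), the ribosomal RNA share of KA sham 4 (9.67%, against 0.584% to 2.0%) and, for the library labelled KA sham 1, a low myelin score (-0.58, against 0.01 to 0.37) and a high neuropeptide score (0.57, against -0.20 to 0.02). In KI sham they were the meninges score (1.28, against -0.40 to -0.24) and the medial habenula score (3.12, against -0.71 to -0.24) of KI sham 4, the ribosomal RNA share of KI sham 2 (16.4%, against 0.661% to 0.793%), and Rph3a in KI sham 1 (log2 CPM 6.04, against 7.31 to 7.47). The habenula list was written after the values of KI sham 4 were seen. Its flag was thus fixed in advance and is a description only. KI sham 3 had a low immediate early gene score (-0.21, against -0.05 to -0.04) and a high glucocorticoid response score (0.28, against 0.06 in each of the other 3).

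Of the 12 genes of smallest p between the shams, 10 passed edgeR's interaction test. Their difference between models in shams departed from that in rats with seizures. The 12 were chosen by sham values that also enter this test, so a high share was favoured in advance. Some list members, such as Aspg, also passed it, but they were likewise picked by their sham p. Over all genes tested, 3.80% passed. The difference of the log2 differences was 0.70 for Sc5d, 0.67 for Ccp110, 0.75 for Cntnap1, 0.97 for Pex5l and 0.76 for Hmgcs1. It was -1.01 for Polr3k, -1.38 for Spint2, -0.95 for Tmem140, -0.83 for Marcks and -0.59 for Erp29.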

How the results depend on the processing

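Between shams, genes called in all, higher in KA and higher in KI numbered 11, 4 and 7 by DESeq2, 411, 314 and 97 by limma-voom, 6, 1 and 5 with a ribosomal protein score as covariate, 625, 322 and 303 without both KI sham 3 and KI sham 4, and 1 to 3, 0, and 1 to 3 on leaving out 1 library. With the replicate block 0 genes were called between shams, and 0 higher in KI; Polr3k kept a log2 difference of -0.88 (edgeR adjusted p = 0.467). KA and KI shams with the same number did not deviate together from their group means (r = -0.003, -0.009, -0.16 and -0.18). Whether libraries of the same number shared a handling step was not tested. Between the 3 Class V groups the count was 959 by DESeq2, 5140 by limma-voom, 931 with the covariate, 655 without both KI shams, and 15 to 801 on leaving out 1 library. For the difference between these comparisons it was 1117 by DESeq2, 4770 by limma-voom, 173 with the replicate block, 1054 with the covariate, and 56 to 897 on leaving out 1 library. The cause of these shifts was not tested. The count of genes with a different spread was 7 with the ribosomal protein score removed and 0 to 1402 on leaving out 1 library. The median SD of KA sham was 0.258 with a filter of 1 CPM, 0.159 with that score removed and 0.236 to 0.288 on leaving out 1 library, and that of KI sham was 0.259 and 0.257 to 0.398. Log2 differences changed sign by limma-voom for Chrna3 (0.60), without KI sham 4 for Gpr151 (0.65) and Chrna3 (0.53), and without both KI sham 3 and KI sham 4 for Cd14 (0.14), Spp1 (0.96), Tap1 (0.014), Ifitm1 (0.34), Cd8a (2.18), Gpr151 (0.70) and Chrna3 (0.82). On leaving out 1 library Gpr151 ran from -4.99 to 0.65 and Chrna3 from -3.76 to 0.53. With 4 KI shams, and 2 without KI sham 3 and KI sham 4, these counts have little precision.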
